A study of Mus musculus with 4 samples.

Results

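The data described here are the globin rows of a microarray series on mouse bone marrow. The members were the rows whose annotated symbols begin with Hba or Hbb, 8 of 35556 rows in all. They carried 10 different symbols in 6 different sets, because 4 rows named a single gene and 4 named several. The rule also asked for single-symbol rows of Ahsp, a chaperone of free alpha globin. The annotation gave 0 such rows, so Ahsp was not analysed here.

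Flt3-negative LSK cells were profiled in 4 RNA samples, each on 1 Affymetrix Mouse Gene 1.0 ST array. LSK cells are bone marrow cells without lineage markers that carry Sca-1 and c-Kit, a fraction rich in blood stem cells. The 2 control arrays came from Mx1Cre-GABPa(FL/+) mice, with 1 floxed and 1 wild-type allele of Gabpa. The 2 arrays labelled deficient came from Mx1Cre-GABPa(FL/-) mice, with 1 floxed and 1 null allele. Both groups carried the Mx1Cre transgene, whose promoter answers interferon and is active in many tissues besides blood, and both had received pIpC, an interferon inducer. The animals, aged 6 to 8 weeks, had been backcrossed to C57/BL6 for 4 generations, and cells were sorted 4 days after the last pIpC. RNA input to the amplification was 800 pg to 50 ng. Whether a sample was 1 animal or a pool is not in the labels, so p-values measure the spread between these samples, which may be technical.

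Haemoglobin is a tetramer of alpha-like and beta-like globin chains, each holding a haem group that binds oxygen. Both gene clusters are ordered along the chromosome by developmental use, with embryonic genes read in primitive red cells and adult genes in red cells made by fetal liver and bone marrow. Erythroblasts make these transcripts to very high levels as they mature, under GATA1, KLF1 and TAL1 complexes. Stem cells are not known as a site of haemoglobin production.

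The shared rows name closely related genes. Hba-a1 and Hba-a2 encode the adult alpha chain, and 2 rows (10375051 and 10375058) named both. Hbb-bs and Hbb-bt are the adult beta genes of the single haplotype carried by C57BL/6, and Hbb-b1 and Hbb-b2 are those of the diffuse haplotype. Another 2 rows (10566254 and 10566258) named all 4 of these beta genes. The rows of each pair listed common accessions and are not independent measurements. No adult row can be assigned to one gene, and the haplotype of these mice is not given in the labels. Hba-x, the embryonic zeta-like gene, had its own row, as did Hbb-y and Hbb-bh1, which encode embryonic beta-like chains, and the minor beta-like gene Hbb-bh2.

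Because adult and embryonic rows are compared below, promoters of both kinds are shown. These promoters belong to an adult alpha gene, both adult beta genes of the reference strain and an embryonic gene of each cluster. They are the 250 bases before the annotated start, 5′ to 3′, from RefSeq with build GRCm38.p6. The sources used here do not name the build behind the array annotation. Capitals mark every match, on either strand, to any of 7 motifs. They are AGATAA for GATA factors, CACCC and the longer form CCACACCC for KLF1, CCAAT for the box of that name, TATAA and the shifted form ATAAA for the TATA box, and CCGGAAG for ETS factors such as GABP.
Hba-a1, chr11:32283422-32283671, strand +: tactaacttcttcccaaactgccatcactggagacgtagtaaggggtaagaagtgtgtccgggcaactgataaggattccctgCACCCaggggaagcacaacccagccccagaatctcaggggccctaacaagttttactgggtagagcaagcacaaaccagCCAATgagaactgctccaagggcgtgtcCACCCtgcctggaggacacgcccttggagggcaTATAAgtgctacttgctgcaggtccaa
Hbb-bs, chr7:103827929-103828178, strand -: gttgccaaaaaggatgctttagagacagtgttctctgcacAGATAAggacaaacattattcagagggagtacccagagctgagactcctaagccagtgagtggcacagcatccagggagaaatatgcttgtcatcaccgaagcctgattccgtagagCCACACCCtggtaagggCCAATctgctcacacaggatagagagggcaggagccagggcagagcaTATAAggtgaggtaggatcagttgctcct
Hbb-bt, chr7:103813924-103814173, strand -: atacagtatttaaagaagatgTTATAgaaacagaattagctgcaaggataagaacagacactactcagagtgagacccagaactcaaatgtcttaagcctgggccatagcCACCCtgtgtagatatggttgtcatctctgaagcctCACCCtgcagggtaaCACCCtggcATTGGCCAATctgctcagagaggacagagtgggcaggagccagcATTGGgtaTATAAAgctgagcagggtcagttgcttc
Hba-x, chr11:32276350-32276599, strand +: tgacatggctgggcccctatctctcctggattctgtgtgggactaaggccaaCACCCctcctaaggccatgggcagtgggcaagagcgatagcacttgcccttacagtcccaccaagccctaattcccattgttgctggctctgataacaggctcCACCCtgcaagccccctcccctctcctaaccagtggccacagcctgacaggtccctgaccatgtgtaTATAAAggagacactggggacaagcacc
Hbb-y, chr7:103853208-103853457, strand -: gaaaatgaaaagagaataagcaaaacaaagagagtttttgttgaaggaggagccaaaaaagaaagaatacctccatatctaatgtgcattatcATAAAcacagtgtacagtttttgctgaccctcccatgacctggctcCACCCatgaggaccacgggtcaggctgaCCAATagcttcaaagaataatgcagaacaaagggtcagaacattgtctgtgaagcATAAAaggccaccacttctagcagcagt

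RefSeq promoters were found for 7 globin genes, the 5 shown plus Hba-a2 and Hbb-bh2. The Hba-a1 and Hba-a2 promoters matched at 247 of 247 aligned bases, so they differ in this window only in where the start is annotated. Hbb-bs and Hbb-bt matched at 71.7% of 244 aligned bases, whereas Hba-a1 and Hba-x matched at 49.2% of 240. The short motif CACCC, which lies inside CCACACCC, was found in 6 of the 7 promoters and in 52.0% of all 32851 promoters of this length. The longer CCACACCC was found in 1 of the 7, that of Hbb-bs, where its first base lay 93 bases before the start, and in 3.20% of all. CCAAT was found in 5 of the 7 against 33.8% of all, TATAA in 5 against 22.8%, ATAAA in 4 against 37.3% and AGATAA in 2 against 9.99%. AGATAA was the only form searched for GATA factors, so the TGATAA in the Hba-a1 and Hba-x sequences was neither marked nor counted. The motif CCGGAAG was found in 0 of the 7 and in 6.91% of all promoters. In Hba-x and Hbb-bt the matches of both TATA forms overlap near the start. These are matches of letters in a short window and say nothing about binding by any factor.

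As a check of the labels, the Gabpa row read 8.43 and 7.28 in controls, and 6.43 and 7.85 on the deficient-labelled arrays (log2). The groups overlapped, and limma gave a difference of −0.71 (SE 0.68, adjusted p = 0.605). A whole-transcript row can lie outside the deleted exons, and then it checks nothing about the deletion, so groups are named by their labels. Values are log2 RMA values, in which 1 unit is a doubling of signal, and no read depth exists for arrays, so their number limits the precision. Array medians ran from 5.87 to 6.01, and correlations across rows were 0.960 between controls, 0.944 between arrays labelled deficient and 0.923 to 0.942 between groups. The median difference of all rows was 0.15, and cyclic loess normalization moved it to −0.0045.

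The design compared GABPα-deficient with control cells, all from mice given pIpC. The adult alpha rows read about 15 times higher and the adult beta rows about 3 times higher on the arrays labelled deficient. In RNA from sorted cells in bulk, more cells that hold globin RNA and more of it per cell cannot be told apart. The 4 embryonic or minor rows differed by 0.13 to 0.44 log2 units. In limma's fit, 0 of 8 globin rows passed an adjusted p under 0.05, as did 0 of 35556 rows in all (0%, lowest adjusted p = 0.169). At an unadjusted p under 0.05, 4 of 8 globin rows were higher and 0 lower. Over all rows, 6.64% were higher and 5.25% lower by that rule. Those 4 rows are the adult ones and stand for 2 gene sets. With 1 row kept per set of symbols, the count was 2 of 6.

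Both adult alpha rows lay far apart between the groups. Row 10375051 read 9.10 and 7.82 in controls, and 12.00 and 12.67 on the deficient-labelled arrays. Row 10375058 read 9.07 and 7.79 in controls, and 11.95 and 12.77 on the deficient-labelled arrays. In each row the lower array labelled deficient stood at least 2.88 above the higher control. Row 10375051 averaged 8.46 ± 0.90 (SD, n = 2) in controls against 12.34 ± 0.47, and differed by 3.88 log2 units (SE 0.54, limma unadjusted p = 0.00238, adjusted p = 0.276). As a ratio of signal this is 14.7-fold, with a 95% interval from 5.10 to 42.3. For row 10375058 the difference was 3.93 (SE 0.57, adjusted p = 0.280), or 15.3-fold. By size these 2 differences ranked 7 and 6 among the 35556 rows, counted from the most positive difference.

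The control arrays themselves differed in alpha globin signal. Control replicate 1 exceeded control replicate 2 by 1.27 in row 10375051, a gap that 4.76% of all rows matched or exceeded. Among arrays labelled deficient, replicate 2 exceeded replicate 1 by 0.67. The group difference was 3.05 times the larger of those gaps. With single arrays left out in turn, it ran from 3.24 without control replicate 2 to 4.51 without control replicate 1.

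The adult beta rows were bright on every array. Row 10566254 read 11.56 and 11.00 in controls, and 12.54 and 13.04 on the deficient-labelled arrays. Row 10566258 read 11.49 and 10.71 in controls, and 12.56 and 13.13 on the deficient-labelled arrays. The groups did not overlap in either row, and the arrays stood in the same order as for alpha globin: control replicate 2 lowest, labelled deficient replicate 2 highest. Row 10566254 averaged 11.28 ± 0.39 (SD, n = 2) in controls against 12.79 ± 0.35, and differed by 1.51 log2 units (SE 0.30, limma unadjusted p = 0.00846, adjusted p = 0.338). This corresponds to 2.85-fold, with a 95% interval from 1.58 to 5.16. Row 10566258 differed by 1.75 (SE 0.38, adjusted p = 0.358), or 3.36-fold.

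**Figure D1:**
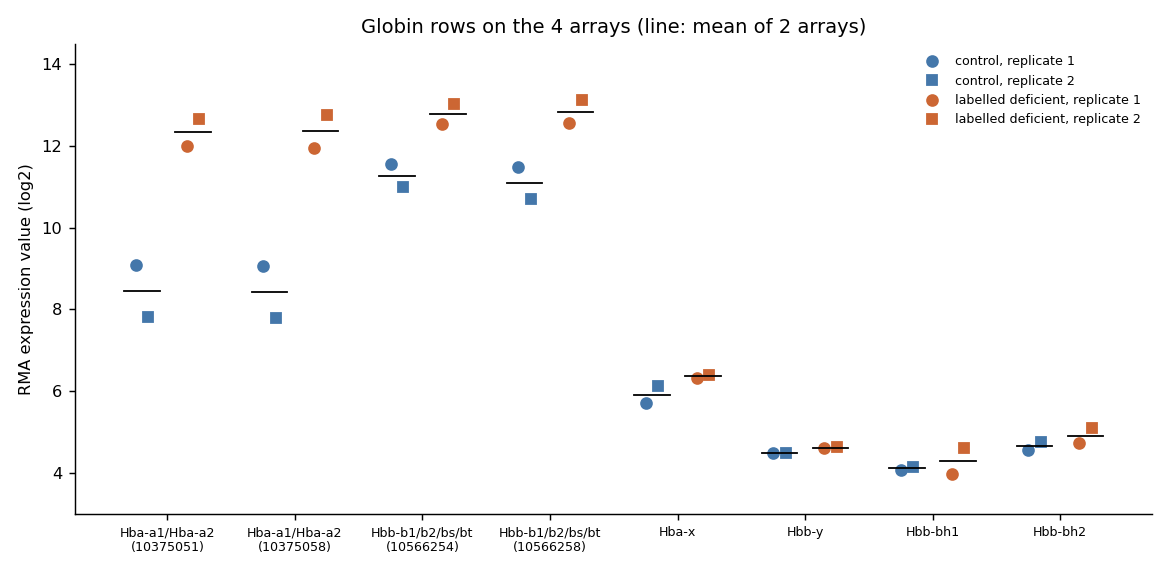
Log2 RMA values (vertical axis) of the 8 globin rows on 2 control arrays (blue) and 2 arrays labelled deficient (orange), with circles for replicate 1, squares for replicate 2 and lines for means of 2 arrays. The adult alpha values run from 7.79 to 9.10 in controls and from 11.95 to 12.77 on arrays labelled deficient, while Hbb-y, Hbb-bh1 and Hbb-bh2 stay between 3.98 and 5.09 on all 4 arrays.

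The difference between groups was larger in signal for alpha than for beta globin. Within each array, the alpha row 10375051 minus the beta row 10566254 was −2.46 and −3.18 in controls, and −0.54 and −0.37 on the deficient-labelled arrays. The alpha difference thus exceeded the beta difference by 2.36 log2 units (exact two-sided permutation test over arrays, p = 0.333). That is the smallest p that 2 arrays against 2 can give, so the test could not pass 0.05. With 1 array left out it ran from 2.01 to 2.72. The beta rows had less room above them: the brightest value in the table was 13.67, and on labelled deficient replicate 2 the beta row 10566254 was brighter than 99.9% of rows. The part of that limit in the smaller beta difference was not tested.

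The embryonic and minor genes showed small differences at low signal. Hba-x read 5.70 and 6.14 in controls, and 6.33 and 6.39 on the deficient-labelled arrays. Its difference was 0.44 (SE 0.21, limma adjusted p = 0.443), with a 95% interval from −0.15 to 1.04, and its groups did not overlap. Hbb-y read 4.48 and 4.50 in controls, and 4.60 and 4.63 on the deficient-labelled arrays, and differed by 0.13 (95% interval −0.26 to 0.51). Its groups were 0.11 apart, and cyclic loess turned the sign of its difference to −0.068.

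Hbb-bh1 read 4.08 and 4.16 in controls, and 3.98 and 4.61 on the deficient-labelled arrays. Its groups overlapped, its difference was 0.18 (95% interval −0.57 to 0.93), and without labelled deficient replicate 2 it was −0.13. Hbb-bh2 read 4.57 and 4.76 against 4.73 and 5.09, again with overlap, and differed by 0.24 (95% interval −0.33 to 0.81). The upper bounds of the intervals for Hbb-y, Hbb-bh1 and Hbb-bh2 were all below the lower bound for adult alpha row 10375051, 2.35. The adult beta rows were not set apart in this way. Their lower bounds, 0.66 and 0.69, lay below the upper bounds for Hbb-bh1, Hbb-bh2 and Hba-x. The table holds no detection calls, so whether these dim rows stood above background is not known here.

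Over the 8 rows the median difference was 0.98, against 0.15 over all rows, and 0.34 with 1 row per set of symbols. All 8 differences were above 0, as were 66.3% of all rows, but not that of Hbb-y after cyclic loess or that of Hbb-bh1 without labelled deficient replicate 2. The groups did not overlap, with the arrays labelled deficient higher, in 6 of the 8 rows. That was so for 38.9% of all rows, and for 14% in the other direction. The count was 5 after cyclic loess, where Hbb-y changed sign.

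**Figure D2:**
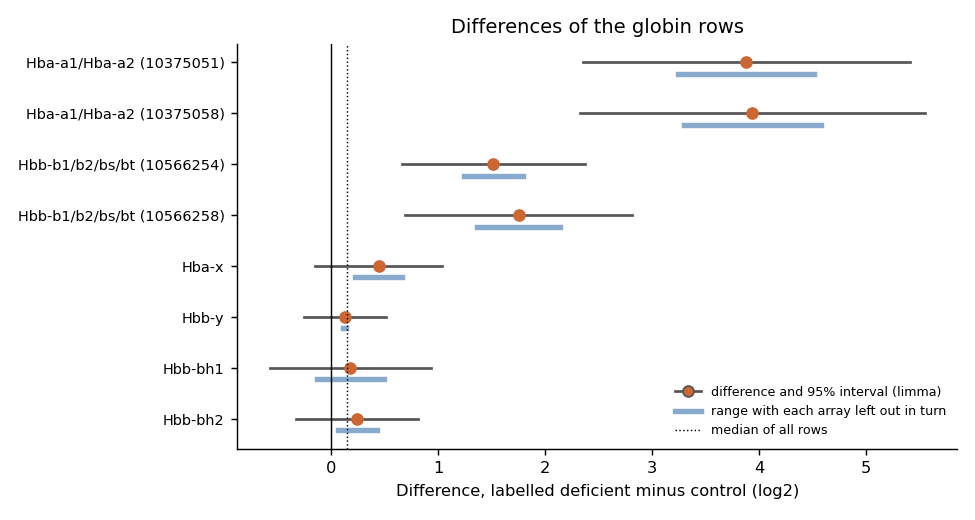
Difference in log2 value, labelled deficient minus control (horizontal axis), for each globin row, with limma's 95% interval in grey, the range with single arrays left out in blue and the median of all rows (0.15) as a dotted line. The intervals of the 4 adult rows lie above 0, at 0.66 or more, and those of Hba-x, Hbb-y, Hbb-bh1 and Hbb-bh2 include 0.

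Other genes of haemoglobin production were described from lists chosen with earlier results of these data known. Of 78 genes in 6 lists, 73 had a single-symbol row. At an unadjusted p under 0.05, 30 were higher and 7 lower on the arrays labelled deficient, and 0 passed the adjusted threshold. By the same unadjusted rule, 6.64% of all 35556 rows, with or without a symbol, were higher and 5.25% lower. The count of lower genes was 2 without control replicate 1 and 2 without control replicate 2. The median difference of the 73 was 0.81. In this fit, none of the 73 differed by as much as the adult alpha rows.

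Haem synthesis and mitochondrial iron import genes make the haem that globin chains bind. All 12 measured had differences above 0, with a median of 1.35, and 8 were higher at unadjusted p. Cpox, coproporphyrinogen oxidase, read 8.43 and 8.49 in controls, and 10.10 and 10.02 on the deficient-labelled arrays (difference 1.60, SE 0.14, limma adjusted p = 0.173). Ppox, the next enzyme of the pathway, differed by 1.84 (SE 0.19) and Glrx5, a glutaredoxin of iron-sulphur cluster assembly, by 1.72 (SE 0.19). Alas2, the erythroid enzyme that starts haem synthesis, was singled out after its values were seen. It read 5.35 and 5.30 in controls, and 6.03 and 6.80 on the deficient-labelled arrays, a difference of 1.09 (SE 0.31).

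Genes listed as transcription factors of the globin genes were mixed. The list also holds Hbs1l, which is not a transcription factor. It differed by −1.03 (SE 0.50) in the row used and by 0.11 in its other row. Of 16 measured, 3 were higher and 5 lower at unadjusted p, with a median difference of 0.076. Klf1, the factor that binds CACCC boxes, read 7.90 and 7.90 in controls, and 9.68 and 9.65 on the deficient-labelled arrays (difference 1.77, SE 0.14, limma adjusted p = 0.173). Gata1, the master regulator of red cell genes, differed by 1.16 (SE 0.19), and the repressor gene Gfi1b by 0.81 (SE 0.18). The 5 lower genes, named after their values were seen, were Lmo2, Nfe2, Myb, Bach1 and Gata2, at −0.56, −1.005, −1.39, −0.80 and −0.87. Lmo2 is a bridging protein of GATA1 and TAL1 complexes, Myb and Gata2 are known for progenitors, and Bach1 encodes a haem-sensitive repressor of globin genes. The embryonic globin repressor genes Bcl11a and Sox6, also picked afterwards, differed by −0.35 (SE 0.14) and 0.091 (SE 0.16).

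Red cell membrane and surface genes had the highest list median, 2.15 over 13 measured, with 9 higher and 0 lower at unadjusted p. Ank1, the ankyrin that anchors the membrane skeleton, read 6.14 and 6.22 in controls, and 8.24 and 8.37 on the deficient-labelled arrays (difference 2.13, SE 0.15, limma adjusted p = 0.169). Kel, a blood group peptidase, differed by 3.03 (SE 0.29) and the water channel gene Aqp1 by 2.15 (SE 0.19). Among iron uptake and haem breakdown genes, 5 of 12 were higher and 0 lower, with a median of 0.86. Blvrb, biliverdin reductase B, differed by 2.96 (SE 0.16), the iron transporter gene Slc11a2 by 2.39 (SE 0.14) and the ferrireductase gene Steap3 by 1.13 (SE 0.14).

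Late maturation genes were less uniform, with 5 of 15 higher, 2 lower and a median of 0.44. Tspo2, an erythroid translocator protein, differed by 2.71 (SE 0.30), Trim10 by 1.77 (SE 0.16) and Car1, carbonic anhydrase 1, by 1.26 (SE 0.15). The 2 lower genes, named after their values were seen, were Bnip3l, which acts in mitochondrial clearance, at −1.19 (SE 0.25) and the catalase gene Cat at −0.58 (SE 0.15). The other globin superfamily genes had 0 of 5 past an unadjusted p of 0.05. Hbq1a, a theta-like gene of the alpha cluster, differed by 0.30 (SE 0.15), cytoglobin (Cygb) by 0.59 (SE 0.22) and neuroglobin (Ngb) by 0.34 (SE 0.15). Hbq1b, singled out afterwards as the theta-like neighbour of the adult alpha genes, read 6.38 and 6.78 in controls, and 6.82 and 8.27 on the deficient-labelled arrays.

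**Figure D3:**
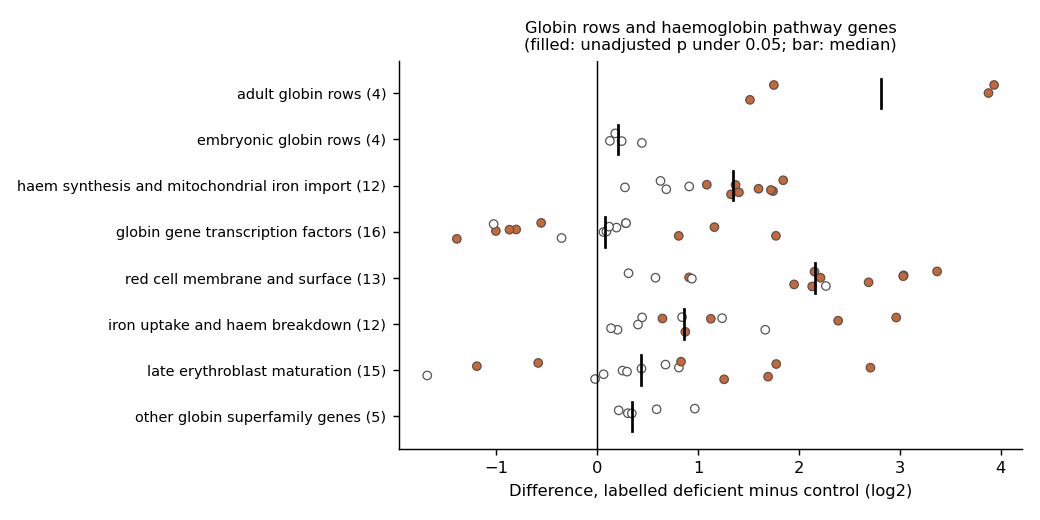
Difference in log2 value, labelled deficient minus control (horizontal axis), of the adult globin rows, the embryonic and minor globin rows and the 6 pathway lists, with 1 point per row or gene, fill for an unadjusted p under 0.05 and a bar for the median (number measured in brackets). The adult alpha rows at 3.88 and 3.93 lie to the right of all 73 pathway genes, and the membrane list has the highest list median, 2.15.

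The pattern within groups was not the same across the pathway. Control replicate 1 exceeded control replicate 2 in all 4 adult globin rows, which stand for 2 gene sets. In Hba-x, Hbb-bh2, Hbb-bh1 and Hbb-y control replicate 1 was the lower, by 0.44, 0.19, 0.080 and 0.014. It was the higher in 2 of 13 membrane genes and 5 of 12 haem synthesis and import genes. Labelled deficient replicate 2 exceeded replicate 1 in all 8 globin rows and in 11 of 15 late maturation genes. The gap was 0.026 in Hbb-y and 0.058 in Hba-x, which 93.4% and 85.5% of all rows matched or exceeded. Labelled deficient replicate 2 also had the higher array median, 6.01 against 5.93. The shares of all rows in these orders were not counted here. Several red cell genes, picked out after their values were seen, were high on labelled deficient replicate 2 alone. Slc4a1, the anion exchanger band 3, read 6.89 and 10.00 on the arrays labelled deficient, against 6.15 and 6.21 on the controls. Tfrc, the transferrin receptor gene, read 7.39 and 10.18 against 7.78 and 7.32, and Hemgn, a nuclear protein of erythroblasts, read 7.42 and 9.62 against 7.85 and 7.84.

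Genes with the most similar profiles were sought over the 4 arrays, by the Euclidean distance between profiles after subtraction of each row's mean, among 21785 single-symbol rows of other genes. Nearest to alpha row 10375051 was Rhag, the Rh-associated glycoprotein of the red cell membrane, at a distance of 0.74 log2 units. Rhag read 5.16 and 4.45 in controls, and 7.59 and 8.76 on the deficient-labelled arrays, so it shared the order of the arrays. Next came Ifi30, a lysosomal thiol reductase of antigen-presenting cells, at 1.11, the secreted Wnt modulator gene Sfrp4 at 1.16, the claudin gene Cldn13 at 1.16 and the metallothionein gene Mt2 at 1.21. In Sfrp4, Cldn13 and Mt2, unlike the alpha row, control replicate 1 was below control replicate 2.

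Beta row 10566254, with the smaller difference between groups, had closer neighbours. Mybl2, a cell cycle transcription factor, lay at 0.15, with 8.14 and 7.66 in controls, and 8.99 and 9.63 on the deficient-labelled arrays. Ampd3, the AMP deaminase of red cells, lay at 0.24, the DNA repair gene Tdp1 at 0.26, the endosomal GTPase gene Rab4a at 0.26, and Stom, the red cell membrane protein stomatin, at 0.31. The alpha and beta rows lay 2.42 apart, with 68 of 21785 rows nearer to the alpha row and 19709 nearer to the beta row. Profiles were not scaled, so these distances depend on the size of the differences as well as on the order of the arrays. With 4 arrays many rows share a profile, so nearness is a description.

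**Figure D4:**
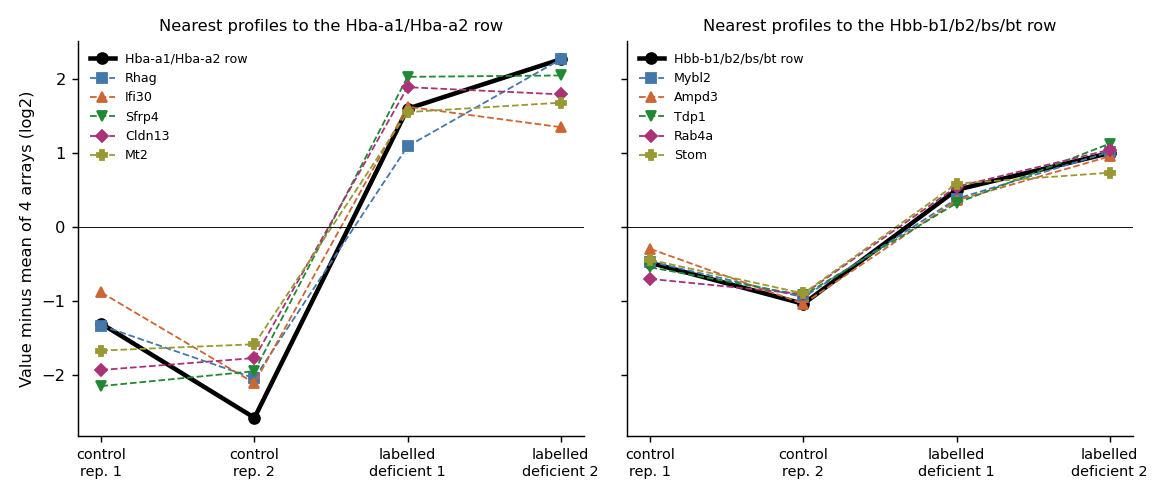
Log2 value minus the mean of 4 arrays (vertical axis) on each array for the adult alpha row 10375051 (left, black) and the adult beta row 10566254 (right, black) with the 5 nearest single-gene profiles. Rhag follows the alpha row at a distance of 0.74, and Mybl2 follows the beta row at 0.15.

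Marker sums of other cell types also differed between these arrays. Summed on the linear scale and given as log2, the 10 measured erythroid markers stood at 10.41 and 10.45 on the control arrays and at 12.47 and 12.78 on those labelled deficient, and 7 of 10 were higher at unadjusted p. Control replicate 1 was above control replicate 2 in 3 of the 10 erythroid markers. Rhd and Ermap, picked out after their values were seen, differed in opposite directions between controls, at 7.12 and 8.15 and at 7.82 and 7.16. The 8 measured genes listed as stem and progenitor markers summed to 12.59 and 12.55 on the control arrays and to 9.80 and 10.19 on the others, with 6 lower at unadjusted p. Their differences ran from −3.54 to −0.25. The 6 include Flt3, although the cells were sorted as Flt3-negative. Flt3 read 8.43 and 9.26 on the controls and 5.68 and 5.95 on the others. Kit, the receptor the cells were sorted on, read 10.21 and 10.21 on the controls and 7.70 and 8.50 on the others, and the Sca-1 gene Ly6a, without a single-symbol row, was not analysed here.

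Macrophage markers summed to 9.90 and 10.07 in controls, and 11.63 and 10.90 on the deficient-labelled arrays, and 5 of 12 were higher at unadjusted p. The order of these sums on the arrays labelled deficient was opposite to that of the globin rows. In 3 of the 12 single markers, labelled deficient replicate 2 was above replicate 1, as in the globin rows. For stromal and endothelial markers the sums were 9.61 and 9.56 against 11.27 and 10.96, with 5 of 9 higher and 0 lower. Granulocyte markers summed to 13.47 and 13.22 against 13.36 and 13.04, with 0 of 9 higher and 2 lower. Sums on the linear scale weigh the brightest markers most. Of these 9 granulocyte markers, 5 had differences above 0, against 66.3% of all rows, and the median difference was 0.25. Megakaryocyte markers summed to 11.70 and 11.90 against 10.30 and 9.23, with 0 of 5 higher and 3 lower. B and plasma cell markers summed to 10.69 and 9.98 against 10.99 and 11.30, with 2 of 7 higher. T and NK cell markers summed to 10.77 and 10.61 against 9.97 and 9.58. Of these 7, 1 was higher and 0 lower at unadjusted p, and 6 differences were above 0. The remaining gene, Nkg7, named after its values were seen, read 10.53 and 10.33 on the controls and 9.45 and 7.44 on the others. Over all rows, 6.64% were higher and 5.25% lower at unadjusted p. No marker was at 0, since RMA values of this table start at 1.98. The part of these cell types in the globin differences was not tested.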

How the data were processed

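Per the labels' protocols, RNA from sorted Flt3-negative LSK cells was amplified and hybridised to Affymetrix Mouse Gene 1.0 ST arrays. The authors deposited 1 log2 expression value per probe set and array. RMA and Partek, with no version, are named in the submitters' processing notes. RMA includes background correction, quantile normalization and a probe summary, so saturation and cross-hybridisation between near-identical globin genes stay in the values. No further normalization was applied, and 0 value columns were left unmatched. Symbols came from the platform annotation, updated by Entrez number through RefSeq GRCm38.p6. Of the rows, 21789 had 1 symbol, 1621 several and 12146 none. Where a pathway or marker gene had several single-symbol rows, the one with the highest mean was used. All 35556 rows were fitted in R 4.3.3 with limma 3.58.1 (lmFit, eBayes, genotype only) and adjusted by Benjamini-Hochberg, and the fit was tested on simulated data. The members, lists and rules were chosen with earlier results of these data known. The named genes were all members, the 3 genes per pathway list with the smallest unadjusted p and the 5 nearest profiles. Outside that rule, Gabpa was named as the target gene, and Kit, Ly6a and Flt3 as genes of the sort. Hbs1l was named as a list member of another kind. Others are said to be picked afterwards. Figures used matplotlib 3.10.9. Alternatives were cyclic loess, subtraction of array medians, removal of the dimmer 50% of rows, a trended and robust prior, a replicate block and leaving out each array. Same-numbered arrays deviated from their group means with a correlation of −0.088 across rows, so the numbers were not taken to pair samples.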

Additional observations from a re-analysis of the deposited data

How the results depend on the processing

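Across 9 alternatives, 0 of 69 values for single globin rows passed an adjusted p under 0.05, and all 36 for the adult rows kept their direction. The adult alpha rows ran from 3.24 to 4.58 and the adult beta rows from 1.24 to 2.14, with adjusted p from 0.211 to 0.606. Of the 69 values, 2 changed sign: Hbb-y was −0.068 after cyclic loess and Hbb-bh1 −0.13 without labelled deficient replicate 2, in a range to 0.49 with single arrays left out. The median over globin rows was 1.75 without the dimmer 50% of rows, which leaves 5 of the 8, and 0.34 with 1 row per set of symbols, an alternative chosen after seeing the data that also gave 2 rows, not 4, at unadjusted p. Pathway genes lower at unadjusted p were 7 with all arrays and 2 to 6 with 1 left out, with 2 without control replicate 1 and also without control replicate 2. With the replicate block the adult alpha row 10375051 had an unadjusted p under 0.05 and an adjusted p of 0.522, pathway genes at unadjusted p numbered 28 higher and 6 lower, and 0 globin rows passed the adjusted threshold, as without the block. Precision is limited by 2 arrays per group.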
